A study of Danio rerio with 6 samples.

Results

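Annexins, S100 proteins and galectins were examined in RNAseq data from GFP+ cells of the zebrafish retina. Of 30689 gene rows in the deposited table, 41 had a name that starts with anxa, s100 or lgals, or that is icn or icn2. They were 16 annexin genes, 12 S100 genes, 10 galectin genes and 3 genes for galectin-3-binding proteins, which carry the lgals prefix but bind galectins and are not galectins themselves. Of these, 27 reached 1 FPKM (fragments scaled to the length of the transcript and to all mapped fragments of a library) in at least 2 of 6 libraries: 10 annexin, 6 S100 and 8 galectin genes and all 3 galectin-3-binding genes. The other 14 never exceeded 1.46 FPKM, the value of anxa5a in a knockdown library, and ANXA1 (4 of 4) was listed at 0 in all libraries. This threshold lets a gene in through the group where it is high. For example, s100a1, s100u, anxa1a, anxa2a, anxa5b and lgals1l1 reached 1 FPKM in both injured libraries and in neither uninjured library.

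The study collected GFP+ cells by FACS from adult fish and sequenced 3 groups with 2 libraries each: needle poke injured retinas with a morpholino against apobec2a and apobec2b (knockdown), needle poke injured retinas taken 2 days after the injury (2 dpi), and uninjured retinas. The sample labels give the transgene gfap:GFP for all groups, in which a glial promoter drives GFP, whereas the study's text names a second line, in which a tuba1a promoter fragment drives GFP in progenitors derived from Müller glia (MG), as the source of the injured cells. If that holds, injury and reporter line cannot be told apart. The columns of the injured group are named for a control morpholino, whereas those of the uninjured group name no morpholino. If uninjured retinas received none, injury and morpholino treatment cannot be told apart either. Only the injured columns carry the time of 2 dpi, which was taken for the knockdown group as well. Within each group the libraries were named a and b after the index in the table, which is not the replicate number of the labels. Nothing states that they came from separate fish, so p-values measure only the spread between libraries.

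Annexins are proteins that bind acidic phospholipids of membranes in the presence of calcium and take part in membrane repair, trafficking and the handling of dying cells. S100 proteins are small EF-hand calcium sensors, some of which act as partners of annexins, and in the mammalian retina S100B is known as a protein of glia. Galectins are lectins that bind galactose-containing glycans on cell surfaces and in damaged vesicles, and in mammals several galectins and the galectin-3-binding protein are made by activated macrophages.

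FPKM keeps no fragment numbers, so the depth of the libraries is unknown and no counting interval is given. Summed FPKM over all rows was 946401 and 962888 in the knockdown group, 1128958 and 1171101 in the injured group, and 985941 and 975192 in the uninjured group. The targeted gene apobec2a was at 0.39 and 0.38 FPKM in knockdown libraries, 0.25 and 0.51 FPKM in injured libraries and 0.15 and 0.41 FPKM in uninjured libraries. A row named APOBEC2 (2 of 2) was at 16.8 and 15.8 FPKM in knockdown libraries, 8.60 and 8.19 FPKM in injured libraries, and 1.12 and 0 FPKM in uninjured libraries. How the morpholino acts is not stated, so the RNA does not check the knockdown. Of 10 MG markers, all were matched, and their sum was 1221 to 1276 FPKM in knockdown, 970.2 to 1023 FPKM in injured libraries and 2101 to 2183 FPKM in uninjured libraries. After injury 5 of 9 tested MG markers were higher, among them gfap, and 4 were lower, among them the most abundant, glula, at 466 and 463 FPKM in injured libraries, against 1196 and 1280 FPKM in uninjured libraries. Rod markers were present too, with 11 of 11 genes matched and a summed level of 5152 to 5363 FPKM in knockdown, 5004 to 6928 FPKM in injured libraries and 13928 to 14244 FPKM in uninjured libraries.

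S100 genes were the most abundant of the families. Their summed level was 569.96 ± 30.6 FPKM in knockdown, 904.8 ± 74.2 FPKM in injured libraries and 478.5 ± 11.96 FPKM in uninjured cells (SD, n = 2 each). Annexin genes summed to 260.2 ± 19.9 FPKM in knockdown, 337.1 ± 20.9 FPKM in injured libraries and 126.9 ± 8.39 FPKM in uninjured cells, and galectin genes to 74.2 ± 1.58, 329.3 ± 35.4 and 53.2 ± 0.07 FPKM in knockdown, injured and uninjured cells. The galectin-3-binding genes summed to 26.6 ± 4.70 FPKM in knockdown, 300.8 ± 17.1 FPKM in injured libraries and 15.4 ± 2.43 FPKM in uninjured cells. In all families the injured sum was highest. The knockdown sum lay nearer to the uninjured sum for S100, galectin and galectin-3-binding genes and nearer to the injured sum for annexin genes. Among the annexin genes of the name rule, the exception rested on anxa13, with means of 146.9 FPKM in knockdown, 141.8 FPKM in injured and 54.6 FPKM in uninjured libraries. Without anxa13 their knockdown sum lay nearer to the uninjured sum too. The rule leaves out a row that RefSeq names anxa13l, at 52.4 and 52.0 FPKM in knockdown, 45.3 and 36.5 FPKM in injured libraries and 14.5 and 18.7 FPKM in uninjured libraries. That row was not counted here, so the exception may not rest on anxa13 alone. A single gene carried much of each sum. The fish S100 gene icn, which encodes ictacalcin, made up 56.9% to 66.3% of the S100 sum across the libraries, anxa13 made up 39.1% to 59.3% of the annexin sum, and lgals3bpb made up 90.6% to 95.5% of the galectin-3-binding sum. Among the galectin genes of the name rule the leading gene changed: LGALS8 (1 of 2) held 36.4% and 34.9% of the sum in uninjured libraries, whereas lgals2a held 35.2% and 31.4% in knockdown libraries and 50.6% and 46.2% in injured libraries. The rule leaves out a row that RefSeq names lgals3a, at 59.5 and 59.1 FPKM in knockdown and 42.4 and 39.4 FPKM in uninjured libraries. It was above the leading gene of the rule in both groups, so these sums and shares leave out much galectin RNA.

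**Figure D1:**
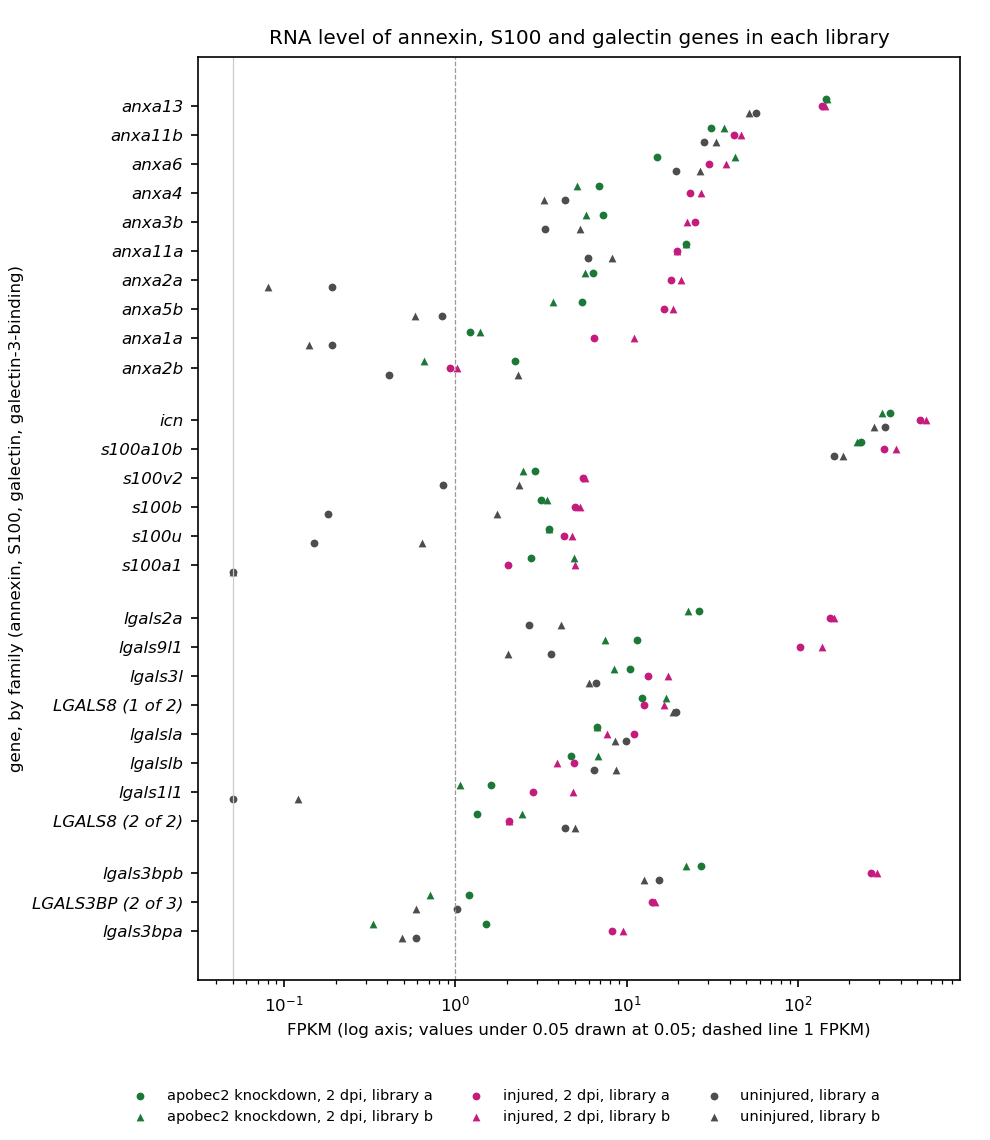
RNA level in FPKM (log axis) of the 27 reported genes in each of 6 libraries, grouped by family, with circles for library a and triangles for library b, and values under 0.05 FPKM drawn at 0.05. The genes icn, s100a10b and anxa13 were above 50 FPKM in every library, and the injured libraries of lgals2a, lgals9l1 and lgals3bpb, at 103 to 289 FPKM, lie far to the right of the knockdown and uninjured libraries, which stay at or under 27.2 FPKM.

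Cells of injured retinas were compared with cells of uninjured retinas to find which of these genes differed in level between them. Of the 27 genes tested with limma at an adjusted p under 0.05 (Benjamini-Hochberg over all rows tested), 21 were higher in injured cells, 2 were lower and 4 did not pass, against 28.8% of all rows called higher and 18.4% called lower. By family, 8 of 10 annexin genes, 6 of 6 S100 genes, 4 of 8 galectin genes and 3 of 3 galectin-3-binding genes were higher, and the 2 lower genes were the galectins LGALS8 (2 of 2) and lgalslb. Of the higher genes, s100a1, s100u, anxa1a, anxa2a, anxa5b, lgals1l1 and lgals3bpa were under 1 FPKM in both uninjured libraries. They entered this comparison only through the injured libraries where they were high. s100b, s100v2 and LGALS3BP (2 of 3) reached 1 FPKM in only 1 uninjured library, so they too needed the injured libraries to enter. The calls of all these genes add little to the counts, also to those of the S100 and galectin-3-binding families. The median log2 fold change on the log2(FPKM + 1) scale, with these genes included, was 1.77 over the 27 genes and 0.08 over all 17195 rows tested. The count of 23 fell to 12 of 20 tested without injured library a and to 11 of 19 tested without injured library b. The calls over all rows fell in these fits as well. Under quantile normalization the median of all rows moved to -0.10, and the share of called rows that were higher moved to 44.7% from 61.1%. There 22 of the 27 genes were called, with icn and anxa11b no longer past the threshold and LGALS8 (1 of 2) past it as lower.

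The knockdown cells were compared with the injured cells to find which of these genes differed in level between these groups. Of 27 genes tested with limma, 12 were lower in knockdown cells and 0 were higher, and 15 did not pass, against 6.0% of all rows called lower and 3.03% called higher. At an unadjusted p under 0.05, 18 were lower and 0 higher, with no share over all rows to set beside these counts. The 12 lower genes were anxa1a, anxa2a, anxa3b, anxa4 and anxa5b, the S100 genes icn and s100v2, the galectins lgals2a and lgals9l1, and the 3 galectin-3-binding genes. Of these, lgals3bpa and LGALS3BP (2 of 3) reached 1 FPKM in only 1 knockdown library. They entered only with the injured libraries where they were high, so their calls add little to the counts. The median log2 fold change was -0.63 over the 27 genes and -0.02 over all 17017 rows tested. The count fell in every fit that left out 1 library, most of all without injured library b. The calls over all rows in these fits are not set beside it, so this fall says little about these genes in particular. Under quantile normalization the share of called rows that were higher was 44.8%, against 33.5%, and 11 of the 27 genes were called. Both comparisons use the same injured libraries, so their values are set side by side and no relation between them is drawn.

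Markers of microglia or macrophages moved with the groups. These cells were not meant to be in a GFP+ sort. Of 18 listed markers, 16 matched rows and were tested: 16 of 16 were lower in knockdown than in injured cells, and 14 of 16 were higher in injured than in uninjured cells, with a summed level of 35.6 to 54.3 FPKM in knockdown, 470.1 to 482.7 FPKM in injured libraries and 69.6 to 78.2 FPKM in uninjured libraries. For example, mpeg1, a pore-forming protein of macrophages, was at 4.06 and 2.46 FPKM in knockdown, 40.4 and 47.0 FPKM in injured libraries and 2.97 and 1.57 FPKM in uninjured libraries. The antigen presentation genes cd74a and cd74b made up 61.9 and 54.5 FPKM of the uninjured sum, and the other 14 markers summed to 31.6 to 47.1 FPKM in knockdown, 407.7 to 422.3 FPKM in injured libraries and 15.1 to 16.2 FPKM in uninjured libraries. No matched marker of this list was at 0 in any library. Their median log2 fold change in knockdown against injured was -2.97, within the range of the galectin-3-binding genes. In bulk samples, fewer cells of a type and less RNA per cell cannot be told apart, and the part of these cells in the changes of annexin, S100 and galectin genes was not tested. Neutrophil markers (9 matched) summed to 30.6 to 38.5 FPKM in knockdown, 45.7 to 64.7 FPKM in injured libraries and 6.44 to 8.59 FPKM in uninjured libraries, with 1 of 7 tested lower in knockdown and 6 of 7 higher after injury. The lower gene, srgn, was at 5.3 and 4.73 FPKM in knockdown, 29.6 and 20.0 FPKM in injured libraries and 0.92 and 1.07 FPKM in uninjured libraries. It made up most of the difference between the knockdown and injured neutrophil sums. The neutrophil receptor cxcr1 was at or under 0.08 FPKM. Pigment epithelium markers (6 matched) summed to 42.8 to 62.2 FPKM in knockdown, 91.2 to 102.3 FPKM in injured libraries and 7.18 to 9.24 FPKM in uninjured libraries, with 3 of 5 tested lower in knockdown and 5 of 5 higher after injury. Erythrocyte markers (6 matched) summed to 243.4 to 243.7 FPKM in knockdown, 271.5 and 694.1 FPKM in injured libraries a and b and 84.2 to 109.8 FPKM in uninjured libraries, with 2 of 3 tested higher after injury, so injured library b stood apart. Markers of surface epithelium (13 matched) summed to 4.36 to 5.32 FPKM over all libraries, and epcam, the only gene of this list tested in the knockdown, was higher there, at 1.12 and 1.35 FPKM in knockdown against 0.2 and 0.29 FPKM in injured libraries (0.84 ± 0.11, adjusted p = 0.0246). Endothelium markers (6 matched) summed to 33.4 to 34.7 FPKM in knockdown, 19.9 to 20.6 FPKM in injured libraries and 16.4 to 17.0 FPKM in uninjured libraries. This order came from cldn5b, at 21.5 and 23.5 FPKM in knockdown, 9.13 and 8.95 FPKM in injured libraries and 2.25 and 2.63 FPKM in uninjured libraries. Of 3 endothelium markers tested, 1 was higher and 1, tie1, lower in knockdown, and 2 were higher and 1, cdh5, lower after injury. Lens markers (8 matched) summed to at most 16.1 FPKM in any library. The part of these cells was not tested either.

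**Figure D2:**
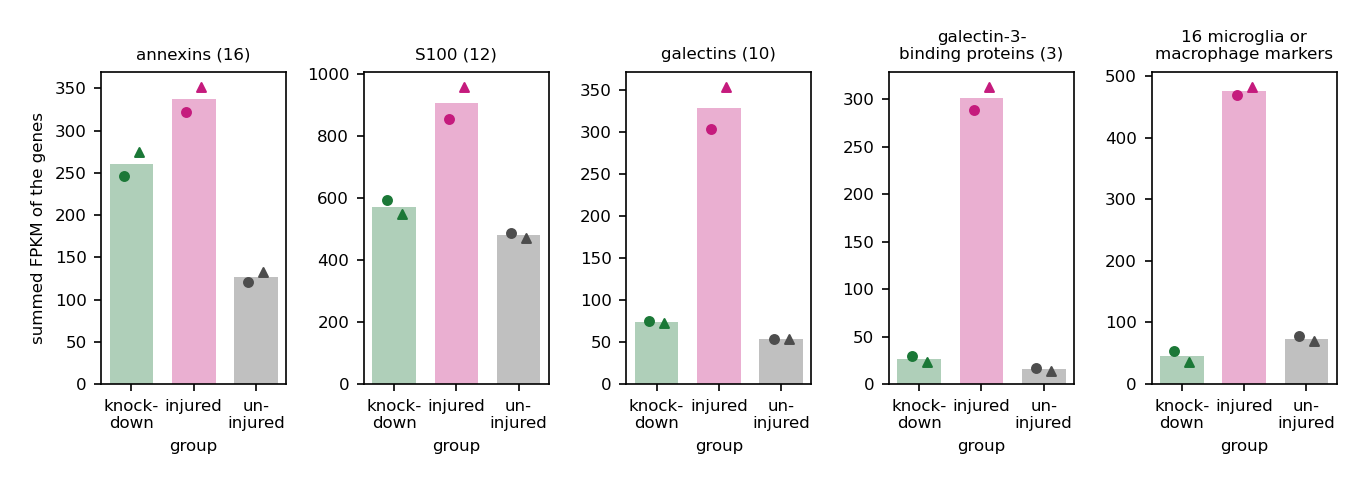
Summed FPKM of each family and of the 16 matched microglia or macrophage markers, with bars at the mean of 2 libraries from 0 and points for libraries a (circle) and b (triangle). The marker sum was 35.6 to 54.3 FPKM in knockdown and 470.1 to 482.7 FPKM in injured libraries, the galectin-3-binding sum was 23.3 to 29.9 FPKM in knockdown and 288.7 to 312.9 FPKM in injured libraries, and the annexin sum was 246.1 to 274.3 FPKM in knockdown and 322.3 to 351.9 FPKM in injured libraries.

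Among annexins, 5 of 10 genes were lower in the knockdown. These 5 were also among the 8 called higher after injury, but the same injured libraries enter both calls. No share of all rows with both calls is given. In the knockdown the median was -2.97 for microglia or macrophage markers, -0.81 for erythrocyte markers and -0.75 for pigment epithelium markers. It was -0.49 for neutrophil, 0.006 for MG, 0.19 for rod and 0.22 for endothelium markers. The surface epithelium and lens lists had 1 tested gene each. The part of these cells in the annexin values was not tested. anxa2a encodes annexin A2, which in mammals forms a complex with S100A10 that holds plasminogen at the cell surface. anxa2a was at 6.35 and 5.72 FPKM in knockdown libraries, 18.1 and 20.8 FPKM in injured libraries and 0.19 and 0.08 FPKM in uninjured libraries. The groups did not overlap, and every injured library was far above every uninjured library. Its log2 fold change was -1.54 ± 0.12 (SE, adjusted p = 0.00809) in knockdown against injured cells and 4.17 ± 0.12 (adjusted p = 0.000756) in injured against uninjured cells. anxa1a encodes annexin A1, in mammals an anti-inflammatory ligand of formyl peptide receptors, and was at 1.21 and 1.39 FPKM in knockdown libraries, 6.41 and 11.1 FPKM in injured libraries, and 0.19 and 0.14 FPKM in uninjured libraries. Its log2 fold change was -2.04 ± 0.26 (adjusted p = 0.0219) for the knockdown and 3.02 ± 0.26 (adjusted p = 0.00276) for injury. The knockdown libraries of anxa1a lay between the other groups, and its knockdown call was lost with no filter.

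anxa5b encodes annexin A5, the phosphatidylserine binder used to stain dying cells. It was at 5.47 and 3.73 FPKM in knockdown libraries, 16.6 and 18.6 FPKM in injured libraries and 0.83 and 0.58 FPKM in uninjured libraries, with log2 fold changes of -1.75 ± 0.19 (adjusted p = 0.0152) for the knockdown and 3.45 ± 0.13 (adjusted p = 0.000953) for injury. For anxa4, a membrane-bending annexin, the levels were 6.90 and 5.13 FPKM in knockdown, 23.3 and 27.1 FPKM in injured libraries, and 4.37 and 3.28 FPKM in uninjured libraries. The log2 fold changes of anxa4 were -1.91 ± 0.17 (adjusted p = 0.0107) for the knockdown and 2.45 ± 0.16 (adjusted p = 0.00168) for injury. The knockdown levels of anxa4 were thus close to the uninjured levels, unlike those of anxa5b and anxa2a. anxa3b, an annexin abundant in mammalian neutrophils, was at 7.25 and 5.79 FPKM in knockdown, 25.1 and 22.7 FPKM in injured libraries and 3.32 and 5.31 FPKM in uninjured libraries, with log2 fold changes of -1.73 ± 0.14 (adjusted p = 0.00888) for the knockdown and 2.25 ± 0.21 (adjusted p = 0.0033) for injury.

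The annexins anxa13, anxa11a and anxa11b were higher after injury but did not pass in the knockdown. anxa13, the most abundant annexin in every library, whose mammalian counterpart is found in the gut and kidney epithelium, was at 146 and 148 FPKM in knockdown libraries, 138 and 145 FPKM in injured libraries and 57.3 and 52.0 FPKM in uninjured libraries. Its level was alike in both injured groups and higher than in the uninjured group in every library. The log2 fold change was 1.36 ± 0.10 (adjusted p = 0.00217) for injury and 0.05 (95% interval -0.21 to 0.32, adjusted p = 0.76) for the knockdown. anxa11a encodes annexin A11, which in mammals binds the calcium sensor ALG-2 and links RNA granules to lysosomes. The gene was at 22.4 and 22.3 FPKM in knockdown, 19.7 and 19.6 FPKM in injured libraries and 5.94 and 8.19 FPKM in uninjured libraries, with log2 fold changes of 1.37 ± 0.17 (adjusted p = 0.00561) for injury and 0.17 (95% interval -0.08 to 0.43, adjusted p = 0.299) for the knockdown. Its paralog anxa11b was at 31.2 and 37.1 FPKM in knockdown, 42.6 and 46.3 FPKM in injured libraries and 28.4 and 33.5 FPKM in uninjured libraries. anxa11b rose by 0.51 ± 0.13 after injury (adjusted p = 0.0336), a call that was lost under quantile normalization, with no filter and without any 1 of the 4 libraries, and its knockdown value of -0.37 did not pass (95% interval -0.73 to -0.02, adjusted p = 0.15). The knockdown libraries of anxa11b overlapped the uninjured libraries, whereas those of anxa11a did not. The locus of anxa11a overlaps a 5S rRNA row, so shared reads between them are possible.

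anxa6, a large annexin of endosomes and the plasma membrane, was at 15.0 and 43.1 FPKM in knockdown, 30.2 and 38.2 FPKM in injured libraries and 19.4 and 26.8 FPKM in uninjured libraries. The knockdown libraries of anxa6 spanned the other groups, and neither comparison passed (adjusted p = 0.644 for the knockdown and 0.0974 for injury). With the library index as a block, injury did pass for anxa6 (limma adjusted p = 0.033). The 95% interval for the knockdown was the widest of the 27 genes, at -1.77 to 0.98. The locus of anxa6 overlaps that of N4BP3. anxa2b, the paralog of anxa2a, was at 2.23 and 0.66 FPKM in knockdown, 0.93 and 1.02 FPKM in injured libraries and 0.41 and 2.32 FPKM in uninjured libraries, so the groups overlapped. In FPKM, anxa2a was above anxa2b in every knockdown and injured library and below it in both uninjured libraries.

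**Figure D3:**
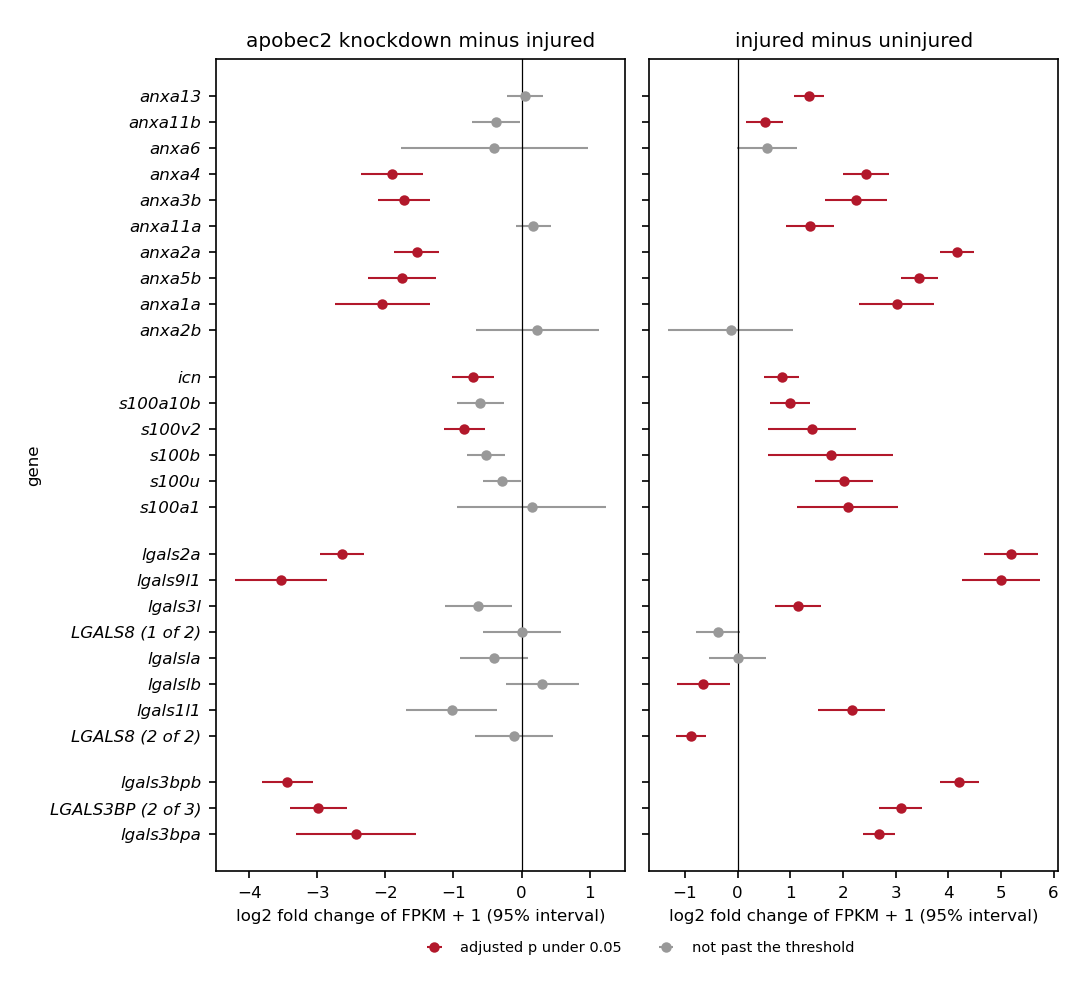
Log2 fold change of FPKM + 1 with its 95% interval for the 27 genes in knockdown minus injured (left) and injured minus uninjured (right), red where the adjusted p was under 0.05. On the left the called genes lie between -3.54 for lgals9l1 and -0.71 for icn, and on the right between -0.89 for LGALS8 (2 of 2) and 5.20 for lgals2a.

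All 6 S100 genes tested were higher after injury, and the 5 with a level above 0 in uninjured cells rose by 0.83 to 2.01 on the log2 scale. Of the 6, s100a1, s100u, s100b and s100v2 passed the filter only with the injured libraries. In the knockdown 2 of 6 were lower. There the median was -2.97 for microglia or macrophage markers, -0.81 for erythrocyte markers and -0.75 for pigment epithelium markers. It was -0.49 for neutrophil, 0.006 for MG, 0.19 for rod and 0.22 for endothelium markers. The part of these cells in the S100 values was not tested. The genes icn and s100a10b were far above the other S100 genes. icn was at 344 and 312 FPKM in knockdown libraries, 516 and 559 FPKM in injured libraries, and 323 and 280 FPKM in uninjured libraries. The injured libraries of icn stood above all others, and the knockdown libraries overlapped the uninjured libraries. Its log2 fold change was -0.71 ± 0.11 (adjusted p = 0.0362) for the knockdown and 0.83 ± 0.12 (adjusted p = 0.00865) for injury. Under quantile normalization the injury value of icn was 0.18 and the knockdown value was -0.51, and neither passed. The knockdown call of icn was also lost with a pseudocount of 0.1, with no filter, with the library index as a block and without any 1 of the 4 libraries, and its injury call without injured library b. s100a10b encodes p11, the S100 partner of annexin A2, which does not need calcium to bind it. The level of s100a10b was 234 and 221 FPKM in knockdown, 318 and 377 FPKM in injured libraries and 162 and 184 FPKM in uninjured libraries, and the groups did not overlap. s100a10b rose by 1.00 ± 0.14 after injury (adjusted p = 0.00784), and its knockdown value of -0.60 did not pass (95% interval -0.95 to -0.26, adjusted p = 0.0641), though it did with a variance trend and with all 3 groups in the fit (adjusted p = 0.0367 and 0.0399).

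The other S100 genes were at low levels. s100b, whose mammalian counterpart marks glia, was at 3.15 and 3.41 FPKM in knockdown, 4.98 and 5.31 FPKM in injured libraries and 0.18 and 1.76 FPKM in uninjured libraries. The uninjured libraries of s100b differed widely. Its log2 fold change for injury was 1.77 ± 0.43 (adjusted p = 0.0333), a call that was lost with a pseudocount of 0.1, with no filter and without either injured library, and for the knockdown it was -0.52 (95% interval -0.80 to -0.24, adjusted p = 0.0559). s100v2, a fish S100 gene, was at 2.92 and 2.49 FPKM in knockdown, 5.56 and 5.68 FPKM in injured libraries and 0.85 and 2.34 FPKM in uninjured libraries, with log2 fold changes of -0.84 ± 0.11 (adjusted p = 0.0237) for the knockdown and 1.41 ± 0.31 (adjusted p = 0.0247) for injury. The knockdown call of s100v2 was lost with the library index as a block, with all 3 groups in the fit and without any 1 of the 4 libraries. Its injury call was lost with a pseudocount of 0.1, with no filter and without either injured library. s100u was at 3.53 FPKM in both knockdown libraries, 4.32 and 4.77 FPKM in injured libraries and 0.15 and 0.64 FPKM in uninjured libraries, with an injury value of 2.01 ± 0.20 (adjusted p = 0.00366) and a knockdown value of -0.29 that did not pass (adjusted p = 0.152). The locus of s100u overlaps other gene rows, among them a row that carries the names pbxip1a and s100a11, so its reads may be shared. s100a1 was listed at 0 in both uninjured libraries and was at 2.76 and 4.94 FPKM in knockdown libraries and 2.03 and 5.0 FPKM in injured libraries. It passed for injury (adjusted p = 0.0128) with no fold given against a level of 0, a call that was lost without either uninjured library, and its knockdown value of 0.15 did not pass (95% interval -0.95 to 1.25, adjusted p = 0.835).

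The galectins lgals2a and lgals9l1 had the largest rises of the 27 genes after injury on the log2(FPKM + 1) scale. By the ratio of group means, anxa2a (144-fold), lgals1l1 (64.1-fold) and anxa1a (53.1-fold) changed more, against levels that did not exceed 0.19 FPKM in uninjured libraries. In the knockdown 2 of 8 galectins were lower. There the median was -2.97 for microglia or macrophage markers, -0.81 for erythrocyte markers and -0.75 for pigment epithelium markers. It was -0.49 for neutrophil, 0.006 for MG, 0.19 for rod and 0.22 for endothelium markers. The part of these cells in the galectin values was not tested. lgals2a, a galectin-2 gene, was at 26.5 and 22.9 FPKM in knockdown libraries, 154 and 164 FPKM in injured libraries and 2.71 and 4.13 FPKM in uninjured libraries. Every knockdown library of lgals2a lay below every injured library and above every uninjured library. Its log2 fold change was -2.64 ± 0.12 (adjusted p = 0.00315) for the knockdown and 5.20 ± 0.19 (adjusted p = 0.000893) for injury, and by group means the injured level was 46.5-fold the uninjured level. lgals9l1, a galectin-9-like gene, was at 11.6 and 7.52 FPKM in knockdown, 103 and 138 FPKM in injured libraries and 3.62 and 2.03 FPKM in uninjured libraries. The log2 fold changes of lgals9l1 were -3.54 ± 0.25 (adjusted p = 0.00647) for the knockdown and 5.0 ± 0.27 (adjusted p = 0.00123) for injury, and its knockdown mean was 0.0793 of the injured mean. Relative to the injured level, lgals9l1 was thus lower in the knockdown than lgals2a, whose knockdown mean was 0.156 of the injured mean. The difference between these genes was not tested.

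Of the other 6 galectins, 2 were higher and 2 lower after injury, and none passed in the knockdown. lgals3l, a galectin-3-like gene, was at 10.5 and 8.50 FPKM in knockdown, 13.3 and 17.4 FPKM in injured libraries and 6.59 and 6.04 FPKM in uninjured libraries, with a rise of 1.15 ± 0.16 after injury (adjusted p = 0.00781) and a knockdown value of -0.63 that did not pass (95% interval -1.12 to -0.15, adjusted p = 0.107). lgals1l1, a galectin-1-like gene, was at 1.62 and 1.07 FPKM in knockdown, 2.85 and 4.84 FPKM in injured libraries and 0 and 0.12 FPKM in uninjured libraries. lgals1l1 was higher after injury (2.16 ± 0.23, adjusted p = 0.00425), and its knockdown value of -1.03 did not pass (95% interval -1.70 to -0.35, adjusted p = 0.0808), though it did with all 3 groups in the fit (adjusted p = 0.0456). Both genes had knockdown libraries between the injured and the uninjured libraries.

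Galectin-8 is known in mammals to mark damaged vesicles for autophagy, and 2 rows carry its name. LGALS8 (2 of 2) was at 1.34 and 2.46 FPKM in knockdown, 2.06 and 2.07 FPKM in injured libraries and 4.35 and 5.02 FPKM in uninjured libraries, and fell by 0.89 on the log2 scale after injury (SE 0.11, adjusted p = 0.00551). LGALS8 (1 of 2), which had the highest uninjured level of the genes named lgals, was at 12.3 and 17.0 FPKM in knockdown, 12.6 and 16.5 FPKM in injured libraries and 19.3 and 18.6 FPKM in uninjured libraries, which did not pass for injury (-0.37, 95% interval -0.80 to 0.05, adjusted p = 0.121). Under quantile normalization it did pass for injury (-0.53, limma adjusted p = 0.0485). Both injured groups of each galectin-8 gene lay below its uninjured libraries, and their knockdown libraries overlapped their injured libraries. The galectin-related genes lgalsla and lgalslb encode a lectin fold that in mammals lacks galactose binding. lgalslb was at 4.73 and 6.78 FPKM in knockdown, 4.95 and 3.91 FPKM in injured libraries, and 6.46 and 8.63 FPKM in uninjured libraries. It fell by 0.65 (SE 0.18, adjusted p = 0.0471) after injury, a call that was lost with a pseudocount of 0.1, with all 3 groups in the fit, with either other filter and with the library index as a block. The call of lgalslb was also lost without either injured library, at -0.788 without library a and -0.511 without library b. lgalsla was at 6.74 and 6.76 FPKM in knockdown, 11.1 and 7.67 FPKM in injured libraries and 9.92 and 8.55 FPKM in uninjured libraries, and the injured and uninjured libraries overlapped.

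All 3 galectin-3-binding genes were higher after injury and lower in the knockdown. The same injured libraries enter both calls, and no share of all rows with both is given. lgals3bpa and LGALS3BP (2 of 3) passed the filter of both comparisons only with the injured libraries. Of the 16 microglia or macrophage markers, 14 were higher after injury and 16 lower in the knockdown. Of 5 tested pigment epithelium markers, 5 were higher after injury and 3 lower in the knockdown. Of 7 tested neutrophil markers, 6 were higher after injury and 1 lower in the knockdown. Of erythrocyte markers, 2 of 3 tested were higher after injury and 0 of 5 tested lower in the knockdown. The part of these cells was not tested. The galectin-3-binding genes encode secreted glycoproteins with a scavenger receptor domain that bind galectin-3. lgals3bpb was at 27.2 and 22.2 FPKM in knockdown libraries, 266 and 289 FPKM in injured libraries and 15.5 and 12.6 FPKM in uninjured libraries. Its injured level was the highest of these genes after icn and s100a10b. Its knockdown libraries lay above the uninjured libraries (0.77 ± 0.16, limma adjusted p = 0.0273). The log2 fold change of lgals3bpb was -3.44 ± 0.14 (adjusted p = 0.00302) for the knockdown and 4.21 ± 0.14 (adjusted p = 0.000806) for injury. LGALS3BP (2 of 3) was at 1.20 and 0.71 FPKM in knockdown, 14.1 and 14.6 FPKM in injured libraries and 1.02 and 0.59 FPKM in uninjured libraries, with log2 fold changes of -2.98 ± 0.16 (adjusted p = 0.00407) for the knockdown and 3.10 ± 0.15 (adjusted p = 0.00108) for injury. lgals3bpa was at 1.51 and 0.33 FPKM in knockdown, 8.27 and 9.48 FPKM in injured libraries and 0.59 and 0.49 FPKM in uninjured libraries. It was lower in the knockdown by limma (-2.43 ± 0.33, adjusted p = 0.0247), a call that was lost with a pseudocount of 0.1, with no filter and without knockdown library b or either injured library, and higher after injury (2.68 ± 0.11, adjusted p = 0.000981). The knockdown libraries of lgals3bpa and LGALS3BP (2 of 3) overlapped the uninjured libraries.

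Several of these genes are neighbors in the table's coordinates, whose genome build is not given in the sources used here. lgals3bpa (chromosome 3, 58513144 to 58525599), LGALS3BP (2 of 3) (58532255 to 58551801) and lgals3bpb (58555821 to 58558177) lie in a row with gaps of 6656 and 4020 bases and no other gene row between them, and these neighbors changed in the same direction in both comparisons. lgals1l1 (chromosome 3, 29090877 to 29097875) and lgals2a (29104392 to 29111376) are 6517 bases apart, and both were higher after injury. s100a10b and icn, the abundant S100 genes, are 30281 bases apart on chromosome 16, with icn2 a further 54498 bases away, and icn2 did not exceed 0.1 FPKM in any library. s100u and s100s are 4861 bases apart on chromosome 19, and s100s did not exceed 0.45 FPKM. A shared neighborhood thus held genes of very different level on chromosome 16. On chromosome 19, s100u and s100s overlapped in uninjured libraries, at 0.15 and 0.64 FPKM against 0.26 and 0.12 FPKM.

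The knockdown cells were also compared with uninjured cells. This comparison uses no library of the injured group, but the knockdown libraries came from injured retinas as well. Injury and knockdown thus cannot be told apart in it, nor can morpholino treatment if uninjured retinas received none. It also shares its knockdown libraries and its uninjured libraries with the comparisons above. Of 26 genes tested, 12 were higher in knockdown cells and 1 was lower, against 22.1% of all rows called higher and 13.5% called lower, and 13 did not pass. The 12 were s100a1, s100u, anxa11a, anxa13, anxa1a, anxa2a, anxa5b, lgals1l1, lgals2a, lgals3l, lgals9l1 and lgals3bpb, and the lower gene was LGALS8 (2 of 2) with -0.996 ± 0.22 (adjusted p = 0.0301). Among the 12, s100a1, s100u, anxa1a, anxa2a, anxa5b and lgals1l1 were under 1 FPKM in both uninjured libraries and entered only through the knockdown libraries. For example, anxa13 was higher by 1.41 ± 0.11 (adjusted p = 0.00271), anxa2a by 2.63 ± 0.11 (adjusted p = 0.00138), lgals2a by 2.56 ± 0.20 (adjusted p = 0.00281) and lgals9l1 by 1.47 ± 0.29 (adjusted p = 0.0238). For icn, anxa3b and anxa4 the differences of 0.12, 0.52 and 0.54 did not pass (adjusted p = 0.493, 0.147 and 0.0948), with 95% intervals of -0.22 to 0.46, -0.09 to 1.13 and 0.03 to 1.05. The rise of lgals3l (0.52 ± 0.14, adjusted p = 0.0485) was lost under 6 alternatives that kept all libraries, that of lgals9l1 and lgals3bpb with no filter, and the fall of LGALS8 (2 of 2) with no filter and with a pseudocount of 0.1. In this comparison 8 of 14 tested microglia or macrophage markers were higher and 2, cd74a and cd74b, were lower (median 1.03), 4 of 6 neutrophil, 5 of 5 pigment epithelium and 3 of 3 erythrocyte markers were higher, and 10 of 11 rod markers were lower, and their part in these calls was not tested. The count of 13 fell to 3 of 18 tested without knockdown library a and to 4 of 20 tested without knockdown library b, and under quantile normalization the share of called rows that were higher was 48.6%, against 62.1%.

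Partners of these families were read from fixed lists, whose counts stand against 28.8% of all rows higher and 18.4% lower after injury, and 3.03% higher and 6.0% lower in the knockdown. Of 21 tested genes for membrane repair and ESCRT-III, the machinery that trims damaged membrane, 14 were higher and 3 lower after injury, and 1 was lower in the knockdown. This gene was pdcd6, which encodes ALG-2, the calcium sensor that binds annexin A11: it was at 7.37 and 7.41 FPKM in knockdown, 13.5 and 13.4 FPKM in injured libraries and 6.12 and 6.05 FPKM in uninjured libraries (-0.78 ± 0.10, adjusted p = 0.0202 for the knockdown, and 1.03 ± 0.09, adjusted p = 0.00277 for injury). The calpain gene capn2a had the largest rise of this list after injury, at 8.02 and 9.27 FPKM in injured against 1.27 and 0.79 FPKM in uninjured libraries (2.26 ± 0.16, adjusted p = 0.00192). Of 7 tested genes for plasminogen activation, a process that annexin A2 with S100A10 promotes in mammals, 7 were higher after injury and 1, plaua, was higher in the knockdown. plaua encodes the plasminogen activator urokinase and was at 3.85 and 3.55 FPKM in knockdown, 1.73 and 2.04 FPKM in injured libraries and 0.22 and 0.34 FPKM in uninjured libraries (0.71 ± 0.11, adjusted p = 0.0368 for the knockdown). The list median for the knockdown was 0.10 for plasminogen activation and -0.14 for membrane repair, against -0.02 over all rows and -0.63 over the annexin, S100 and galectin genes.

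Of 16 tested galectin ligands and N-glycan branching genes, 3 were higher and 3 lower after injury, and 1, the tetraspanin gene cd63 of lysosomes, was lower in the knockdown, at 172 and 163 FPKM in knockdown, 246 and 242 FPKM in injured libraries and 15.1 and 14.4 FPKM in uninjured libraries (-0.54 ± 0.10, adjusted p = 0.0473). slc2a1a, which encodes a glucose transporter, had the largest decrease of this list after injury, at 26.3 and 35.3 FPKM in injured against 133 and 148 FPKM in uninjured libraries (-2.17 ± 0.18, adjusted p = 0.00243). A further list held other calcium binding proteins, most of them with EF hands. Of 23 tested genes on it, 4 were higher and 7 lower after injury, with a median of 0.00, and 1 of 24 was lower in the knockdown. That gene was calr, at 34.0 and 32.0 FPKM in knockdown, 56.2 and 58.8 FPKM in injured libraries and 22.4 and 20.8 FPKM in uninjured libraries (-0.78 ± 0.10, adjusted p = 0.0228). It encodes a calcium-binding chaperone of the endoplasmic reticulum that has no EF hand, and it was also among the 4 genes higher after injury. Of phospholipase A2, lipid mediator and receptor genes, 2 were higher and 3 lower of 10 tested after injury, and 2 of 9 were higher in the knockdown. These were ptgs2b, a prostaglandin synthase gene, at 97.3 and 103.6 FPKM in knockdown, 25.8 and 16.4 FPKM in injured libraries and 42.7 and 48.0 FPKM in uninjured libraries (2.23 ± 0.23, adjusted p = 0.0143), and ptges, which encodes prostaglandin E synthase, at 36.1 and 26.5 FPKM in knockdown against 12.8 and 14.7 FPKM in injured libraries (1.11 ± 0.19, adjusted p = 0.0391).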

How the data were processed

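RNAseq libraries from FACS purified GFP+ cells, 2 each from knockdown, injured and uninjured retinas, were analysed from a single table that lists each gene row 3 times. The authors deposited FPKM per gene and library, in a layout of the Cuffdiff kind. The submitters' processing notes name CASAVA, TopHat and Bowtie2, and the genome build is not given in the sources used here. The authors' own columns of mean FPKM, fold values, p-values and q-values, and 6 further columns of per-library values, were not used. Depth is unknown, and no count test was run.

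Groups were compared with limma 3.58.1 (R 4.3.3) on log2(FPKM + 1), fitting only the libraries compared, for rows that reached 1 FPKM in 2 or more of them, with Benjamini-Hochberg adjustment over all rows at 0.05. A fold change on this scale understates changes of low genes. The fit was tested on simulated data. An exact permutation test of 2 against 2 libraries cannot go below p = 0.333. The members, gene lists and marker lists were chosen with earlier results of these data known. Genes with an adjusted p under 0.05 in injury or knockdown, no overlap between libraries and a group mean of at least 5 FPKM were to be given in full, and other reported genes by value. From each list, up to 3 genes with the largest change in each direction past the threshold were named. Alternatives were a pseudocount of 0.1, quantile and median of ratios scaling, a variance trend, a fit of all 3 groups, the filter dropped or replaced by a mean above 5 FPKM, rows of a symbol summed, the library index as a block, and leaving out each library. Of the 41 names, 32 were RefSeq symbols of GRCz12tu. Python 3.11.15, NumPy 2.4.6, pandas 2.3.3, SciPy 1.17.1 and Matplotlib 3.10.9 were used for other steps.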

Additional observations from a re-analysis of the deposited data

How the results depend on the processing

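The counts of called genes were within 1.5 times of the reported values under every alternative that kept all libraries, with 1 exception: knockdown against uninjured cells gave 7 calls with a filter on a group mean above 5 FPKM, against 13, where fewer genes were tested. Leaving out each library gave 11 to 22 calls for injured against uninjured cells, 0 to 8 for knockdown against injured cells and 3 to 11 for knockdown against uninjured cells. A group with 1 library left was assumed to vary like the other group. Single genes that changed direction were past the threshold neither before nor after the change. In injured against uninjured cells, lgalsla was at -0.15 under quantile normalization and -0.049 under median of ratios scaling, and at -0.236 to 0.24 when each library was left out. In knockdown against injured cells, leaving out each library put s100a1 at -0.344 to 0.641, anxa6 at -1.13 to 0.336, LGALS8 (1 of 2) at -0.211 to 0.227 and LGALS8 (2 of 2) at -0.389 to 0.175. In knockdown against uninjured cells, quantile normalization put icn at -0.29, anxa11b at -0.00085, anxa2b at -0.084 and LGALS3BP (2 of 3) at -0.085, and leaving out each library put anxa6 at -0.575 to 0.89, anxa2b at -0.52 to 0.578 and LGALS3BP (2 of 3) at -0.059 to 0.296. Over all rows, knockdown against injured cells gave 2379 calls with all 3 groups in the fit and 743 with no filter, against 1536. The cause of these differences was not tested. No paired analysis was possible because the table numbers its columns otherwise than the labels number the replicates; the library index of the table as a block gave 23, 10 and 13 calls for injury, knockdown against injured and knockdown against uninjured cells. FPKM gives no depth, so how far low values such as those of s100a1 and anxa1a in uninjured cells are limited by it is unknown.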

Other observations

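RefSeq gives family names to further rows that the table lists under clone or database names, and these were found by that name match and not by their values. zgc:92326, which RefSeq names lgals9l3, was at 4.16 and 4.28 FPKM in knockdown libraries, 31.7 and 41.0 FPKM in injured libraries and 1.82 and 0.62 FPKM in uninjured libraries. Its log2 fold change was -2.83 ± 0.16 (limma adjusted p = 0.00422) for the knockdown and 4.12 ± 0.32 (adjusted p = 0.0022) for injury, the same directions as lgals9l1. zgc:112421, named anxa13l, was at 52.4 and 52.0 FPKM in knockdown, 45.3 and 36.5 FPKM in injured libraries and 14.5 and 18.7 FPKM in uninjured libraries, and rose after injury (1.25 ± 0.18, adjusted p = 0.00872) while its knockdown value of 0.35 did not pass (adjusted p = 0.184), as for anxa13. si:ch211-67f24.5, named lgals3a, was at 59.5 and 59.1 FPKM in knockdown, 60.5 and 63.5 FPKM in injured libraries and 42.4 and 39.4 FPKM in uninjured libraries, and rose by 0.59 ± 0.10 after injury (adjusted p = 0.0127). In knockdown and uninjured libraries it was thus above every galectin gene of the lgals prefix in FPKM. The rows named lgals9l4 and lgals9l5 did not exceed 0.46 FPKM.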
